A study of Mus musculus with 24 samples.

Results

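Nab2 and 7 further genes that lie next to Stat6 on mouse chromosome 10 (Lrp1, Nxph4, Shmt2, Ndufa4l2, Stac3, R3hdm2 and Myo1a) were followed in CD11b+ cells of mice that lack Stat6. The members are the array probes, controls left out, whose RefSeq transcript carries 1 of these 8 symbols, and every such probe is shown. This gave 11 probes of 39429, and 8 genes of the 20659 genes with a symbol, since Nab2, Nxph4 and R3hdm2 each had 2 probes. The genes were selected on their place beside Stat6 and on the measured difference between STAT6-KO and the other genotypes, which was already known. That difference is therefore described here without a test. Tests were run on other comparisons. Whether the difference was unequal between the tissues was also tested. That test used STAT6-KO values on which the genes were selected, and gives no independent support.

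RNA of CD11b+ cells sorted from spleen or bone marrow was measured on one-colour Agilent arrays in male mice of 3 genotypes: wild type (WT), HDC-KO (no histidine decarboxylase, the enzyme that makes histamine) and STAT6-KO (no Stat6). The mice were controls or had had a myocardial infarction (MI) 1, 2 or 4 weeks before. Every condition was represented by 1 array of cells pooled from 5 mice, so none was replicated. Of 24 arrays 22 were used, 8 from WT and 7 each from HDC-KO and STAT6-KO. The control array of HDC-KO spleen and the MI 1 week array of STAT6-KO bone marrow, with too few spots, were left out. All mice had a Balb/C background, and how the 2 knockout alleles were made is not given in the sources used here. On each of 6 slides lay the 4 time points for a combination of genotype and tissue, always in the same positions. Genotype within a tissue cannot be told apart from slide, nor time from position on the slide. Levels are log2 signals relative to the 75th percentile of the array, which lay between 928 and 2461. The number of arrays limits the precision.

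All 9 myeloid markers, Itgam (CD11b itself) among them, were well above background on each of the 22 arrays. So were all macrophage, neutrophil, B cell, T cell and erythroid markers measured, and 8 to 9 of 9 stromal and endothelial markers. Detection therefore does not check the CD11b+ label. The mean log2 level of the myeloid markers was 3.27 to 3.95 in spleen and 4.09 to 4.78 in bone marrow. Macrophage markers were higher in spleen, with a mean log2 level of 1.90 to 3.82 against 0.02 to 1.35 in bone marrow, and B cell markers likewise, at 0.23 to 2.47 against -2.40 to 0.96. T cell markers lay at -0.21 to 2.12 in spleen against -1.08 to -0.60, neutrophil markers at 3.50 to 4.86 against 5.26 to 5.87, and stromal and endothelial markers at -4.34 to -2.96 against -2.48 to 0.14. Erythroid markers overlapped (-1.37 to 1.15 against -1.98 to 0.91). In bulk RNA of this kind, fewer cells of a type and less RNA per cell cannot be told apart. Some arrays went against their labels. Xist RNA, which coats the silenced X chromosome of female cells, gave a signal above background on 1 of its 2 probes on 7 of 7 HDC-KO arrays, on both STAT6-KO control arrays and on 0 of 8 WT arrays, although the mice are given as male. The other Xist probe was above background in some arrays of every genotype, and read -3.31 to -2.05 in HDC-KO and -7.31 to -5.42 in WT. The Y-linked genes Ddx3y, Eif2s3y and Uty were well above background on 7 of 7 HDC-KO arrays too. HDC-KO against WT therefore cannot be told apart from a difference in the sex of the pooled mice. The same holds for the STAT6-KO controls against WT controls and against STAT6-KO after MI, where the first Xist probe was above background on 0 arrays. The STAT6-KO spleen MI 4 weeks array is treated with Stat6 below.

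STAT6 is the transcription factor that carries the interleukin-4 and interleukin-13 signal into the nucleus, and in macrophages it drives genes of alternative activation. NAB2, encoded by the gene next to it, is a corepressor that binds the early growth response (EGR) factors and limits their activity, and EGR factors in turn can induce Nab2. In the protein-coding gene order of GRCm38.p6, Nab2 is the first gene after Stat6, lies on the opposite strand and overlaps the Stat6 annotation. Nemp1 comes next, and then Myo1a. On the other side Lrp1 is the first gene before Stat6, followed by Nxph4, Shmt2, Ndufa4l2, Stac3 and R3hdm2.

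The promoters of Nab2, Lrp1 and R3hdm2 are shown because Nab2 stood apart in STAT6-KO and Lrp1 and R3hdm2 differed between the tissues within each genotype. Each sequence is 300 bases long around the start of the gene and was taken from RefSeq on GRCm38.p6, chromosome 10, read 5′ to 3′ on the strand of the gene. Capitals mark matches to an EGR motif (GCGNGGGCG) or to the STAT motifs TTCNNNGAA and TTCNNNNGAA, the latter being the spacing known for STAT6. Both strands were searched, and no matches overlapped.
Nab2, chr10:127666654-127666953, minus strand: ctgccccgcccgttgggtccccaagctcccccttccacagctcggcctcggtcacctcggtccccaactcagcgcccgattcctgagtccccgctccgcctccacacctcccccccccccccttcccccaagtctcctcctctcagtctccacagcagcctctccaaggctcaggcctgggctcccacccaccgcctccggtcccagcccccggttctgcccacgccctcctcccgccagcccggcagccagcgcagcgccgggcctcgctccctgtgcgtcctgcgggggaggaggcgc
Lrp1, chr10:127621099-127621398, minus strand: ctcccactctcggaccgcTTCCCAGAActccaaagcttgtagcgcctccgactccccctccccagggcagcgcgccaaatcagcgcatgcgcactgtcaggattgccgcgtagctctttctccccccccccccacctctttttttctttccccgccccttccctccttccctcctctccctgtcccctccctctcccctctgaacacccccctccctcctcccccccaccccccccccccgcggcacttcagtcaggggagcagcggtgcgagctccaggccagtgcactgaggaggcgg
R3hdm2, chr10:127380418-127380717, plus strand: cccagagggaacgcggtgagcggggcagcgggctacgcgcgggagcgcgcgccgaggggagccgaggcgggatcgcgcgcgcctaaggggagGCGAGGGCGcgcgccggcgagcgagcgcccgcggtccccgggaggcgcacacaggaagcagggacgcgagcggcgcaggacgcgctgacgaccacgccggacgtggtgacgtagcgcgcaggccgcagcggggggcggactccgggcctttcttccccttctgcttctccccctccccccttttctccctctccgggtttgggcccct
The Nab2 promoter was 74.0% G and C and held none of the 3 motifs. The Lrp1 promoter held TTCCCAGAA at bases 19 to 27, and the printed promoter of R3hdm2 held the EGR match GCGAGGGCG at bases 93 to 101. R3hdm2 had another promoter, not printed (chr10:127420617-127420916), which held none of the 3 motifs. The Shmt2 promoter, not printed, held a match to each STAT motif (TTCCCAGAA at bases 196 to 204 and TTCACTCGAA at bases 255 to 264), whereas those of Stat6 and Myo1a held none. Of 32851 promoters of this length, 5.55% held the EGR motif, 8.3% TTCNNNGAA and 6.95% TTCNNNNGAA. These matches are letters in a window and were not tested as binding sites.

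The data showed a high Nab2 level in every STAT6-KO array. On Nab2 probe 1, the brighter probe, the log2 level in STAT6-KO spleen was 2.55 in control mice and 2.17, 2.32 and 2.50 at MI 1, 2 and 4 weeks. In STAT6-KO bone marrow it was 2.17 in control, 2.34 at MI 2 weeks and 2.02 at MI 4 weeks. These 7 arrays lay close together across tissue and time.
WT spleen lay at -0.28 in control and at -0.43, 0.35 and -0.27 at MI 1, 2 and 4 weeks. HDC-KO spleen lay at -0.17, 0.79 and 0.05 at the same MI times. The spleen arrays of both genotypes overlapped with each other, and all of them lay under the lowest STAT6-KO array.
WT bone marrow was lower still, at -1.57, -2.34, -2.03 and -1.95 in control and at MI 1, 2 and 4 weeks. HDC-KO bone marrow lay at -1.87, -2.83, -1.17 and -2.17 in the same order. The lowest STAT6-KO array was 1.23 above the highest array of the other genotypes, HDC-KO spleen MI 2 weeks.

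**Figure D1:**
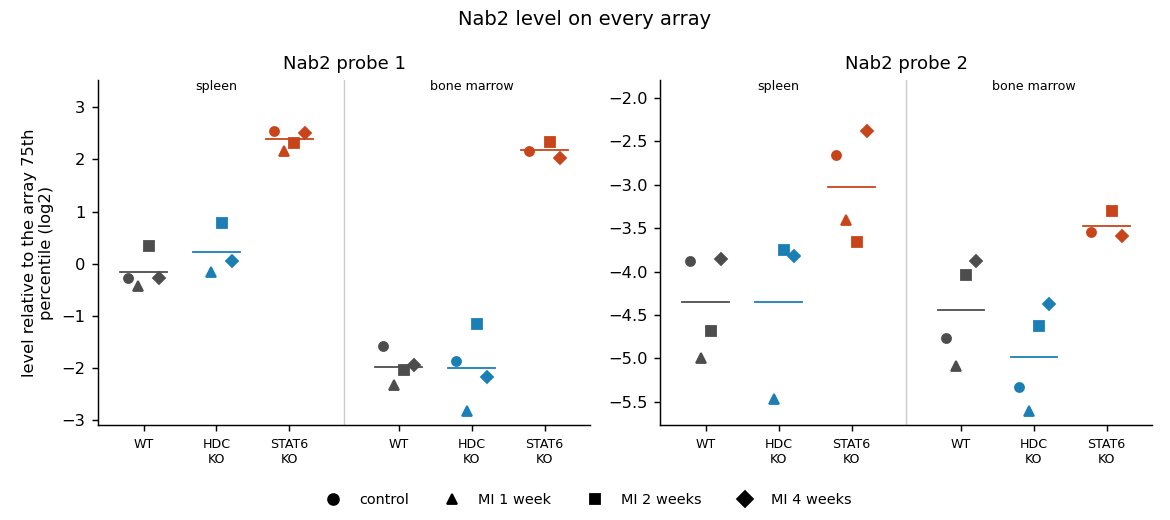
Levels of Nab2 on probe 1 and probe 2 (log2 signal relative to the 75th percentile of the array) by genotype, tissue and time point. Each point is 1 array and each horizontal line is the mean of a genotype in a tissue. On probe 1 the STAT6-KO arrays lie between 2.02 and 2.55 in both tissues, and the WT and HDC-KO arrays lie between -0.43 and 0.79 in spleen and between -2.83 and -1.17 in bone marrow.

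Averaged over time points, Nab2 probe 1 was ordered STAT6-KO spleen (2.39 ± 0.18, SD, n = 4), STAT6-KO bone marrow (2.18 ± 0.16, n = 3), HDC-KO spleen (0.22 ± 0.50, n = 3), WT spleen (-0.16 ± 0.34, n = 4), WT bone marrow (-1.97 ± 0.31, n = 4) and HDC-KO bone marrow (-2.01 ± 0.69, n = 4). The ranges of the 2 STAT6-KO groups overlapped, as did those of WT and HDC-KO within each tissue. At matched times STAT6-KO exceeded WT by 2.83, 2.60, 1.98 and 2.78 in spleen (control, MI 1, 2 and 4 weeks), a mean of 2.54 ± 0.39 (SD, n = 4) or 5.83-fold. In bone marrow it exceeded WT by 3.74, 4.38 and 3.97 (control, MI 2 and 4 weeks), a mean of 4.03 ± 0.32 (SD, n = 3) or 16.3-fold. Against HDC-KO the means were 2.11 ± 0.50 in spleen and 3.91 ± 0.36 in bone marrow (SD, n = 3 each). Over all 22 arrays the mean of STAT6-KO exceeded that of the others by 3.36, which ranked Nab2 probe 1 as number 5 of 33641 probes. Without the MI 1 week arrays this was 3.24 and without the MI 2 weeks arrays 3.54, the lowest and highest values on leaving out 1 time point.

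Nab2 probe 2 gave a dimmer signal with the same order of genotypes and a smaller gap. In spleen it read -2.66, -3.41, -3.66 and -2.38 in STAT6-KO and -3.88, -5.00, -4.69 and -3.85 in WT (control, MI 1, 2 and 4 weeks), and -5.47, -3.76 and -3.82 in HDC-KO at the MI times. In bone marrow it read -3.54, -3.30 and -3.60 in STAT6-KO (control, MI 2 and 4 weeks). WT bone marrow read -4.76, -5.09, -4.04 and -3.87, and HDC-KO -5.34, -5.61, -4.63 and -4.37. All 7 STAT6-KO arrays lay above the other 15, by 0.10 at the closest, but overlapped with them after normexp background correction (-0.38). At matched times STAT6-KO exceeded WT by 1.33 ± 0.26 in spleen (SD, n = 4) and by 0.75 ± 0.47 in bone marrow (SD, n = 3). Unlike on probe 1, the larger difference from WT was in spleen. Against HDC-KO the means were 1.20 ± 1.00 in spleen and 1.30 ± 0.51 in bone marrow (SD, n = 3 each).

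Stat6 itself fell below WT in STAT6-KO at 7 of 7 matched times on each of its 3 probes, with mean differences of -0.64, -1.68 and -1.28. On Stat6 probe 1, the brightest, a signal of 1.76 to 2.44 remained in STAT6-KO, against 2.38 to 3.70 in WT. In bone marrow the STAT6-KO arrays lay under all others on 3 of 3 probes, whereas in spleen they overlapped. The spleen array labelled STAT6-KO MI 4 weeks read 0.20 on Stat6 probe 2 and 0.73 on probe 3, against -1.72 to -0.87 and -1.11 to -0.29 in the other STAT6-KO spleen arrays. This array thus lay within the range of WT spleen on both probes (-0.43 to 1.08 and 0.05 to 1.29). On Stat6 probe 1 it read 2.12, within the 1.94 to 2.44 of the other STAT6-KO spleen arrays. The array lay below WT spleen on that probe (2.38 to 2.90). Its Nab2 level on probe 1 was 2.50, as high as in the other STAT6-KO arrays. Without this array the difference of Nab2 probe 1 over the remaining arrays was 3.32. Whether the Stat6 probes lie inside the deleted part is not given in the sources used here. Hdc was lower in HDC-KO, at 1.67 to 1.93 in spleen and 2.32 to 2.78 in bone marrow, against 4.32 to 4.83 and 4.75 to 5.51 in WT. In STAT6-KO Hdc lay at 4.12 to 5.29.

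Among the 11 member probes, 2 had all STAT6-KO arrays above all others over the 22 arrays, both of them for Nab2, and 1 with normexp background correction. Over all 33495 probes the share was 0.0687% (23 probes), and 0.00597% (2 probes) had all STAT6-KO arrays below. Within spleen 3 member probes stood above (Nab2 probes 1 and 2 and Myo1a), against 0.644% of all probes above and 1.22% below. Within bone marrow the 2 Nab2 probes stood above and Stac3 below, against 6.03% above and 1.4% below. The rule used this contrast, and the counts are given as a description.

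Myo1a encodes a class I myosin best known from the brush border of the gut. In spleen its log2 level was -2.47, -2.31, -2.54 and -2.59 in STAT6-KO (control, MI 1, 2 and 4 weeks). WT spleen read -3.18, -3.24, -3.03 and -3.18, and HDC-KO spleen -3.31, -3.59 and -3.16 at the MI times. The STAT6-KO spleen arrays lay above the others, on average 0.68 ± 0.19 above WT (SD, n = 4) or 1.60-fold. In bone marrow the STAT6-KO arrays (-2.76, -2.99 and -3.11) overlapped with those of WT (-3.67, -2.75, -3.44 and -2.97) and HDC-KO (-3.48, -3.10, -2.99 and -2.73). The mean log2 level of macrophage markers was 3.17 to 3.82 in STAT6-KO spleen. It was 1.90 to 3.27 in WT spleen and 2.51 to 3.23 in HDC-KO spleen, and both ranges overlapped with that of STAT6-KO. Between the tissues these markers were higher in spleen (1.90 to 3.82 against 0.02 to 1.35). Myo1a in spleen minus bone marrow averaged 0.42 in the STAT6-KO pairs, 0.05 in the WT pairs and -0.41 in the HDC-KO pairs. The part of these markers in the spleen difference of Myo1a was not tested.

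Stac3, an adaptor of excitation-contraction coupling in skeletal muscle, was the only member probe with all STAT6-KO bone marrow arrays below the others. It read -1.41, -1.12 and -1.09 there (control, MI 2 and 4 weeks), against -1.06, -0.69, -0.79 and -0.94 in WT and -0.80, -0.89, -0.88 and -0.82 in HDC-KO. The gap to the lowest WT array was small beside the spread within WT. In spleen STAT6-KO Stac3 read -0.14, -0.04, 0.34 and -0.65, and WT read -0.58, -0.53, -0.33 and -0.60. HDC-KO spleen read -0.13, -0.76 and -1.01 at the MI times, and the 3 genotypes overlapped.

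Lrp1 encodes a large endocytic receptor of the LDL receptor family that macrophages use to clear apoptotic cells and protease complexes. Its spleen level was 0.14, 0.55, 0.19 and 0.39 in STAT6-KO, and 0.80, 0.13, -0.55 and -0.40 in WT. In HDC-KO spleen it was 1.12, 0.11 and 0.24 at the MI times. In bone marrow it was -1.34, -1.67 and -1.34 in STAT6-KO, -0.82, -0.67, -1.5 and -0.38 in WT, and -1.31, -1.45, -1.43 and -0.88 in HDC-KO. The genotypes overlapped in both tissues, so the nearest gene on the side away from Nab2 did not stand apart in STAT6-KO. At matched times in bone marrow STAT6-KO was below WT at 3 of 3 (mean -0.55) and below HDC-KO at 3 of 3 (mean -0.24). Spleen STAT6-KO was above WT at 3 of 4 (mean 0.32) and above HDC-KO at 2 of 3 (mean -0.11).

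Shmt2, the mitochondrial serine hydroxymethyltransferase that feeds one-carbon units into folate metabolism, was below WT in STAT6-KO at 6 of 7 matched times. In spleen it read -1.73, -1.27, -1.62 and -1.25 in STAT6-KO, -1.24, -0.83, -0.33 and -1.52 in WT, and -1.10, -0.66 and -1.28 in HDC-KO at the MI times. In bone marrow it read -1.92, -1.70 and -0.96 in STAT6-KO, -0.36, -1.66, -0.91 and -0.75 in WT, and -0.62, -0.84, -0.84 and -0.88 in HDC-KO. The STAT6-KO arrays overlapped with the others in both tissues.

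R3hdm2, which encodes a protein with an R3H domain, differed little between genotypes. On R3hdm2 probe 1 STAT6-KO differed from WT at matched times by -0.50 to 0.25, with a mean of -0.14 (n = 7), and on probe 2 by -0.56 to 0.18, with a mean of -0.17. Nxph4, a neurexophilin (a family of secreted glycoproteins), was dim, and its matched differences ran from -0.98 to 0.35 on probe 1 and from -1.22 to 1.47 on probe 2. Ndufa4l2, a relative of a cytochrome c oxidase subunit that is induced in hypoxia, was the dimmest and most variable member. Its matched differences ran from -1.38 to 1.87. It was not well above background on 3 spleen arrays (WT and HDC-KO MI 1 week and STAT6-KO MI 4 weeks), and the other 10 probes were well above background on all 22 arrays.

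**Figure D2:**
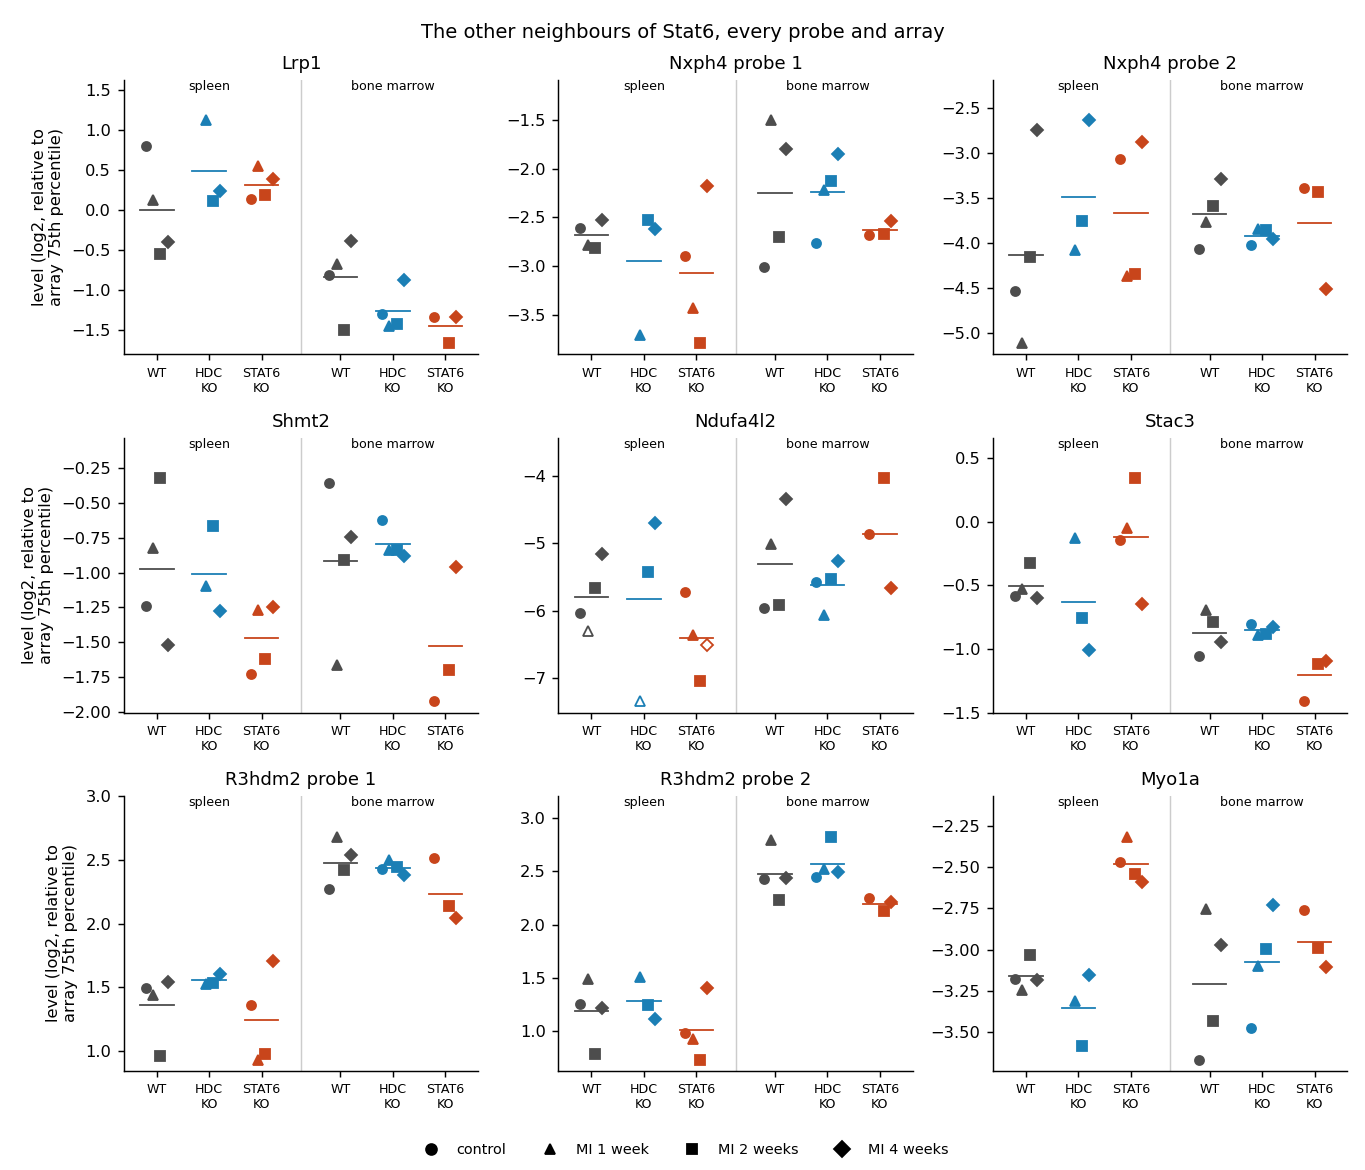
Levels of the 9 member probes other than Nab2 (log2 signal relative to the 75th percentile of the array) by genotype and tissue. Each point is 1 array, open where the signal was not well above background, and each horizontal line is the mean of a genotype in a tissue. Myo1a in spleen lies between -2.59 and -2.31 in STAT6-KO and between -3.59 and -3.03 in the other genotypes, and the remaining probes overlap between genotypes except Stac3 in bone marrow.

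The wider region was compared by counts. It held 42 other genes around Stat6, of which 39 could be compared over the 22 arrays. In 0 of these 39 genes did the STAT6-KO arrays stand apart from the others, beside 0.0687% above over all probes, and the differences of means ran from -0.60 to 0.79 with a median of -0.12, beside -0.03 over all probes. Nemp1, which encodes an inner nuclear membrane protein and lies between Nab2 and Myo1a, had a STAT6-KO mean 0.81 higher in spleen and 0.84 higher in bone marrow than the other genotypes on Nemp1 probe 1, its brightest. On that probe it was higher than in WT at 7 of 7 matched times, by 0.17 to 1.38, but overlapped with the others. On Nemp1 probes 2 and 3 the mean difference from WT was 0.33 (higher at 7 of 7 times) and 0.26 (higher at 5 of 7). In spleen alone 0 of 38 genes stood apart. In bone marrow 3 of 38 did, a share near that of all probes there (6.03% above and 1.4% below), named here after their values were seen, namely Inhbe (0.82 higher), B4galnt1 (-0.40) and Rdh7, which was higher but well above background on 10 of the 22 arrays alone.

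**Figure D3:**
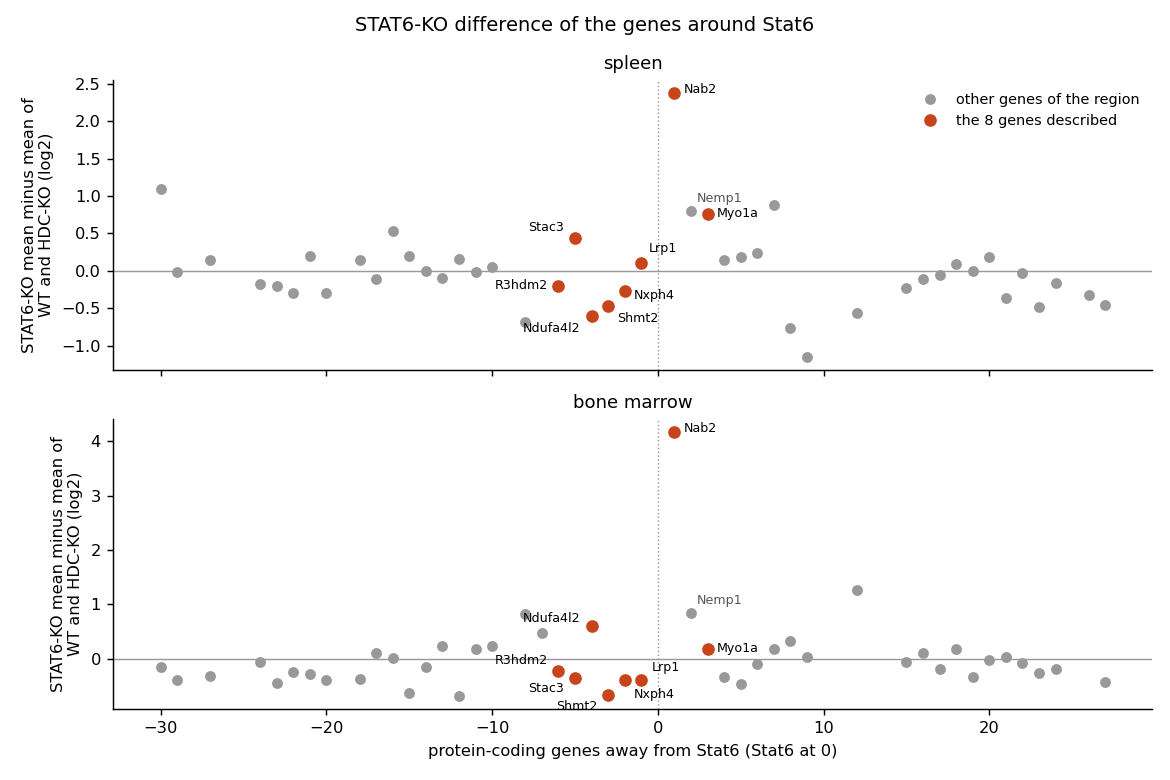
Mean level of the STAT6-KO arrays minus that of the WT and HDC-KO arrays (log2) in spleen (top) and bone marrow (bottom) for genes around Stat6, plotted by their place in the order of protein-coding genes counted from Stat6 at 0. Each point is 1 gene on its probe with the highest mean. Nab2, the gene directly after Stat6, lies at 2.38 in spleen and 4.17 in bone marrow, and the other genes of the region lie between -1.15 and 1.1 in spleen and between -0.68 and 1.26 in bone marrow.

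The comparison of spleen-derived with bone marrow-derived CD11b+ cells was not the contrast of the rule. It was not independent of the rule either, since 3 of its pairs were STAT6-KO arrays with values that the rule used. It used the 10 pairs of arrays of the same genotype and time point, and limma with the pair as a block. Of the 11 member probes 6 passed an adjusted p of 0.05, 3 higher and 3 lower in spleen. Of all 33547 probes 54.9% passed, 22.3% higher and 32.6% lower in spleen, so that a share of this size was no more than the background. Whether the arrays of a pair came from the same mice is not given, and each tissue lay on slides of its own.

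Nab2 probe 1 was 1.49 higher in spleen (SE 0.27, limma adjusted p = 0.000501) and higher in 9 of 10 pairs. On Nab2 probe 2 the difference was 0.37 (limma adjusted p = 0.112). Lrp1 was 1.36 higher in spleen (SE 0.21, limma adjusted p = 0.000152), in 9 of 10 pairs, with pair differences of -0.02 to 2.57. The markers of other cell types moved in the same comparison. In spleen 9 of 9 macrophage markers, 5 of 5 B cell markers and 4 of 6 T cell markers were higher, and 8 of 9 neutrophil markers and 7 of 9 stromal and endothelial markers were lower. Their part in the differences of the members and of the gene groups was not tested. Stac3 was 0.53 higher (SE 0.16, limma adjusted p = 0.0133), but did not pass without the control arrays or without the MI 2 weeks arrays (limma adjusted p = 0.0571 and 0.0578).

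R3hdm2 was lower in spleen on both of its probes. In spleen R3hdm2 probe 1 lay at 0.93 to 1.70 over the 3 genotypes, and in bone marrow at 2.04 to 2.68, with no overlap. It was lower by 0.98 (log2 -0.98, SE 0.11, limma adjusted p = 1.85e-05) and probe 2 by 1.26 (log2 -1.26, SE 0.10, limma adjusted p = 8.28e-07), each in 10 of 10 pairs. Nxph4 probe 1 was -0.53 (SE 0.20, limma adjusted p = 0.0352), while Nxph4 probe 2 was 0.04 (limma adjusted p = 0.914). The Nxph4 call was lost without the MI 1, 2 or 4 weeks arrays (limma adjusted p = 0.177, 0.120 and 0.0626) and with slide as a random block (0.0813). Ndufa4l2 (-0.73), Shmt2 (-0.07) and Myo1a (0.02) did not pass (limma adjusted p = 0.0542, 0.743 and 0.914).

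**Figure D4:**
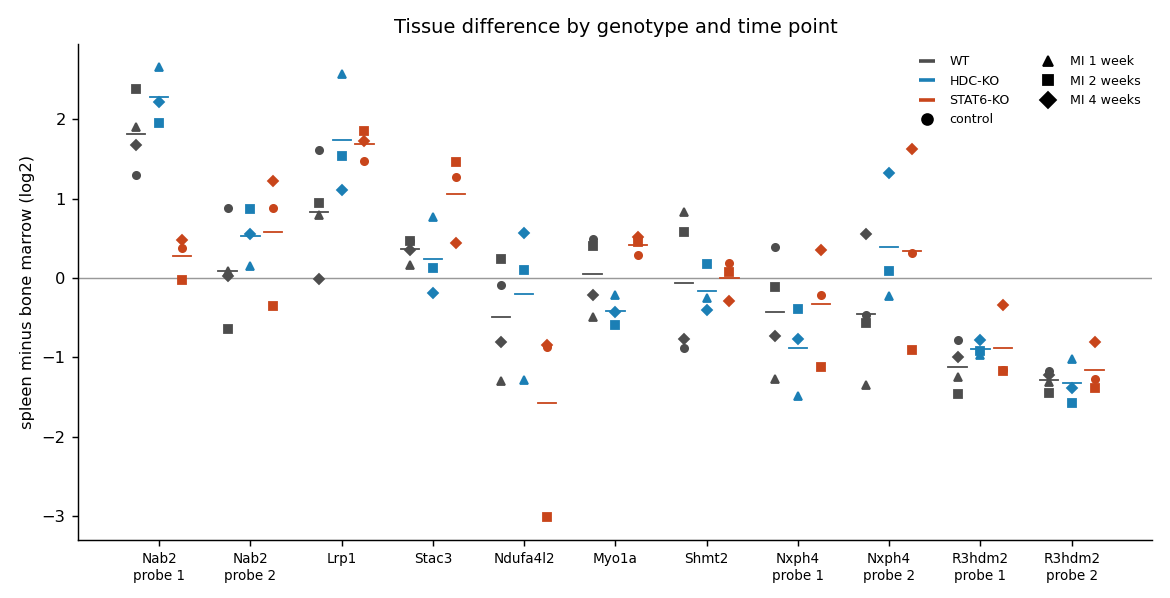
Level in spleen minus level in bone marrow (log2) of each member probe, for pairs of arrays of the same genotype and time point. Each point is 1 of the 10 pairs, with the colour giving the genotype and the shape the time point, and each short line is the mean of a genotype. On Nab2 probe 1 the WT and HDC-KO pairs lie between 1.30 and 2.67 and the STAT6-KO pairs between -0.02 and 0.48, and R3hdm2 lies below 0 in all pairs on both probes.

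The tissue difference of Nab2 probe 1 was large in WT and HDC-KO and small in STAT6-KO. In the 4 WT pairs it was 1.30 to 2.38, with a limma estimate of 1.82 (SE 0.20, limma adjusted p = 0.000196). In the 3 HDC-KO pairs it was 1.95 to 2.67, with an estimate of 2.28 (SE 0.23, limma adjusted p = 9.39e-05). In the 3 STAT6-KO pairs it was -0.02 to 0.48, with an estimate of 0.28 (SE 0.23, limma adjusted p = 0.356). The shares of all probes that passed within WT, HDC-KO and STAT6-KO were 32.7%, 38.7% and 41.5%. The difference between these differences was tested as the interaction of tissue and genotype. The test used STAT6-KO values on which Nab2 was chosen, and gives no independent support. For STAT6-KO against WT the interaction was -1.53 (SE 0.31, limma adjusted p = 0.0791 over all probes), which did not pass. Of all probes 103 passed, or 0.307%, and of the 11 member probes 0 did, with 1 at an unadjusted p under 0.05. With HDC-KO in place of WT the interaction was -2.0 (SE 0.33) and passed, as did 2.39% of all probes, but this reference was chosen after the result with WT was known. On Nab2 probe 2 the interaction was 0.50 (SE 0.45, limma adjusted p = 0.714), so the pattern rests on 1 probe. Each genotype and tissue lay on a slide of its own, and this interaction cannot be told apart from a difference between slides.

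Within STAT6-KO, the tissue difference rests on arrays with values that the rule used, and gives no independent support. It passed the test for 5 of 11 member probes, beside 41.5% of all probes. These were both R3hdm2 probes, Lrp1 (1.69), Stac3 (1.06, SE 0.24, limma adjusted p = 0.00590) and Ndufa4l2 (-1.58, SE 0.48, limma adjusted p = 0.0250). The Ndufa4l2 pairs were -0.87 in control, -3.01 at MI 2 weeks and -0.85 at MI 4 weeks. Its MI 4 weeks spleen signal was not well above background. At MI 2 weeks its spleen level (-7.05) lay near the lowest such signal of that array (-7.19), so the size is uncertain. The interaction with genotype did not pass for Stac3 (0.70, SE 0.32, limma adjusted p = 0.388) or Ndufa4l2 (-1.09, SE 0.64, limma adjusted p = 0.525).

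HDC-KO was compared with WT within each tissue, with genotype and time point as additive terms. In spleen 0 of 11 member probes passed the test, beside 2.63% of all probes (846 of 32113), and 0 had an unadjusted p under 0.05. Nab2 probe 1 was 0.39 higher (SE 0.20, limma adjusted p = 0.309), and Lrp1 was 0.60 higher (SE 0.28, limma adjusted p = 0.254). Lrp1 passed the test (0.77 higher) in the fit that held WT and HDC-KO arrays alone. In bone marrow 0 of 11 passed, beside 0.424% of all probes. At an unadjusted p under 0.05 there were 2, namely Nab2 probe 2 (-0.55, SE 0.18, limma adjusted p = 0.179) and Lrp1 (-0.42, SE 0.17, limma adjusted p = 0.228). Nab2 probe 1 was at -0.04 there (SE 0.22, limma adjusted p = 0.934).

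MI against control, as the mean of the 3 MI time points, gave no call among the members or among all probes in either tissue (0% of 32113 probes in spleen and of 32820 in bone marrow by limma). At an unadjusted p under 0.05 there were 5065 and 5541 probes, of which 0 and 1 were member probes. That probe was Nxph4 probe 1 in bone marrow (0.64, SE 0.24, limma adjusted p = 0.252). Nab2 probe 1 changed by -0.03 in spleen (SE 0.21) and by -0.32 in bone marrow (SE 0.22), with limma adjusted p = 0.956 and 0.467. The member probes ranged from -0.56 to 0.35 in spleen and from -0.32 to 0.64 in bone marrow.

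Gene groups that share the pathways of the members were counted in the tissue comparison, each gene on its probe with the highest mean, beside 22.3% of all probes higher and 32.6% lower in spleen and a median of -0.17 over all probes. Of 6 EGR factors and NAB cofactors tested, 3 were higher in spleen and 0 lower (median 0.42). They were Egr4 (3.12, limma adjusted p = 1.98e-05), Egr2 (1.5, limma adjusted p = 0.000186) and Egr1 (0.79, limma adjusted p = 0.00949), factors of the family that NAB proteins bind. Egr4 was dim, and well above background on 9 of 10 spleen arrays and 2 of 10 bone marrow arrays. Of 19 genes of the LDL receptor family and LRP1 partners, 6 were higher and 9 lower (median -0.19). The largest were Vldlr, a lipoprotein receptor that was not well above background in spleen and at least 9.34-fold higher in bone marrow, Thbs1 (-2.29), an LRP1 ligand, and Plau (-2.19), the urokinase protease. In such a bound the lowest signal well above background of each array stands for the dim probe. Of 18 serine and folate one-carbon enzymes, 3 were higher and 3 lower, with Mtfmt at 0.95, Gcsh at 0.80 and Tyms at -0.71.

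Of 12 genes of the NDUFA4 family and of hypoxia, 1 was higher and 6 were lower in spleen (median -0.47), led by Epas1 (-1.53), which encodes HIF-2α, the prolyl hydroxylase gene Egln3 (-1.52) and Vegfa (-1.46). Of 8 genes of the STAC family and excitation-contraction coupling, 4 were higher and 1 lower, with the calcium channel subunit Cacna1s at 2.48 and the calcium release channel Ryr1 at 1.20. Cacna2d1, another channel subunit, was not well above background in spleen and at least 4.59-fold higher in bone marrow, where 7 of 10 arrays measured it. Of 7 class I myosins 3 were higher and 2 lower, among them Myo1e (1.65), Myo1h (1.29) and Myo1d (-0.99). Among 5 R3H domain genes 2 were higher and 1 lower, namely R3hcc1 (0.46), R3hdm1 (0.40) and R3hdm4 (-2.26). Of 39 other genes of the Stat6 region 7 were higher and 14 lower, with Apof at 3.54 (well above background on 1 of 10 bone marrow arrays), Rdh1 at 2.36 and Tac2 at -1.73. In HDC-KO against WT 0 genes of these groups passed, beside 2.63% of all probes in spleen and 0.424% in bone marrow. In the interaction with WT as reference 0 passed, beside 0.307% of all probes, and with HDC-KO as reference 2.39% of all probes did. With HDC-KO as reference A2m, which encodes an LRP1 ligand and was well above background on 15 of the 22 arrays, passed (-2.45). Over the 22 arrays 0 genes of these groups had all STAT6-KO arrays apart from the others. This is near the share of all probes, of which 0.0687% stood above and 0.00597% below.

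The genes whose level was most like that of Nab2 probe 1 over the 22 arrays were found by Pearson's r among 21670 probes. They were Zfp85 (0.88), 1110032A03Rik (0.88), Gm2016 (0.87), Prdm1 (0.87) and Zfp967 (0.86). The arrays share slides, tissues and genotypes, and these values are a description with no test. Among the members, Nab2 probe 1 had an r of 0.76 with Nab2 probe 2, 0.49 with Myo1a, 0.30 with Lrp1, 0.27 with Stac3, -0.12 with Ndufa4l2 and -0.52 with Shmt2. It was -0.59 and -0.61 with the R3hdm2 probes and -0.48 and 0.10 with the Nxph4 probes.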

How the data were processed

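CD11b+ cells of spleen and bone marrow were measured on one-colour Agilent mouse arrays (Cy3). The authors scanned the arrays and deposited spot tables of Feature Extraction 11.0.1.1. The deposited intensity used here is the processed signal, with background subtracted and no scaling between arrays. GCRMA, named in the submitters' processing notes, and Genespring, named in the paper, left no values used here. Of 24 arrays 22 were used (43020 spots that were not controls, 39429 probes). Spots marked as outliers (3055) were left out, 0 were saturated, repeated spots of a probe were averaged, and log2 signals minus the 75th percentile of each array were taken. Between 70.4 and 79.8% of spots were well above background. Probes were named through RefSeq (27234 with a symbol).

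Tests were run in R 4.3.3 with limma 3.58.1, on all probes well above background on at least 2 arrays of a fit, with Benjamini-Hochberg adjusted p under 0.05. With 1 array per condition, the spread of an effect over time points is the error. Python 3.11.15 and matplotlib 3.10.9 made the plots. The fits were tested on simulated data. Alternatives were normexp background correction (offset 50), quantile and median scaling, a floor, other filters, 1 probe per gene, other blocks, fewer arrays and each time point left out. The tissue difference within a genotype and HDC-KO as the reference of the interaction were added after seeing the data. All probes of the 8 genes are named, with the targeted genes, up to 3 genes per list by size of a change past the threshold, region genes whose arrays stand apart, and the 5 probes most correlated with Nab2. The members and lists were chosen with earlier results of these data known. The tissue result of 1 gene list on a member's pathway is not reported here.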

Additional observations from a re-analysis of the deposited data

Results flagged for a closer look

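For Nab2 probe 1, the STAT6-KO effect relative to HDC-KO differed between spleen and bone marrow by -2.0 on the log2 scale (limma adjusted p = 0.0135). It stands here because this interaction passed the threshold. The reference was chosen after seeing the data, and with WT as the reference, as planned, the value was -1.53 and did not pass (limma adjusted p = 0.0791). The gene was chosen on STAT6-KO values, and this gives no independent support.

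Stac3 in STAT6-KO minus HDC-KO was above 0 in spleen at 3 of 3 matched times (0.08, 1.1 and 0.36) and below 0 in bone marrow at 3 of 3 (-0.61, -0.24 and -0.27), so that the mean in spleen exceeded that in bone marrow by 0.89. It was singled out because the samples of the tissues moved in opposite directions, and that pattern was not tested as such. In the limma interaction with HDC-KO as the reference Stac3 was at 0.82 (adjusted p = 0.260).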

How the results depend on the processing

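For the counts of member probes past the threshold, 93 of 97 alternatives gave a count within 1.5 times the value reported, and 4 did not. With WT and HDC-KO arrays alone, 1 member probe (Lrp1) passed in HDC-KO against WT spleen in place of 0, and 2985 probes in place of 846. In the interaction 1 member probe (Nab2 probe 1) passed in place of 0 with no block for the pair and 1 with HDC-KO as reference, among 351 and 801 probes in place of 103. With normexp 1 member probe had all STAT6-KO arrays above the others in place of 2, since the gap of Nab2 probe 2 became -0.38. When each time point was left out, the tissue comparison called 5 to 6 member probes, STAT6-KO stood apart on 2 probes throughout (2 to 2), the other counts stayed at 0 to 0, and the Nab2 probe 1 difference was 3.24 to 3.54. For single probes, 88 of 97 alternatives kept the side of the threshold, 2 gained it and 7 lost it, the latter for Stac3 and Nxph4 probe 1, and 0 reversed. Nxph4 probe 1 was also lost with normexp (limma adjusted p = 0.0536). The causes were not tested.

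Over all probes and alternatives, limma called 0 to 2985 probes in HDC-KO spleen, 5 to 468 in HDC-KO bone marrow (139 reported), 0 to 801 in the interaction, and 0 to 616 for MI in spleen (0 reported, 616 without the MI 4 weeks arrays). The tissue comparison called 10983 to 19450 (18404 reported). Probes on which STAT6-KO stood apart numbered 8 to 97 (25 reported). Of the HDC-KO spleen calls 74.0% were higher, against 50% with quantile and 52.9% with median scaling. The largest shift of the median of all probes by another scaling was 0.26, in MI spleen with normexp.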
